A study of Drosophila melanogaster with 4 samples.

Results

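The proximal X chromosome outside its piRNA clusters was described as 339 tiles of 5 kb. They are what is left of the 400 consecutive tiles that make up the last 2 Mb of the X sequence, from 20422828 to 22422827 in FlyBase release 5, once 61 tiles that overlap the interval from 21390001 to 21690000 are dropped. The rule for the tiles uses position alone, but the region was picked with earlier results of these data known. They form a distal stretch of 193 tiles (965 kb, from 20422828 to 21387827) and a proximal stretch of 146 tiles (730 kb, from 21692828 to 22422827), which runs to the centromere-side end of the assembled sequence. For scale, the 5 large arms and chromosome 4 hold 24074 tiles of this size. The dropped interval is named for the piRNA clusters of proximal X. A release 5 annotation was not used here, so the positions of these loci, and the genes in the kept tiles, were not checked.

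Whole embryos of Drosophila melanogaster, aged 14 to 16 h, of the wild-type strain Oregon-R (Oregon-R-modENCODE) were profiled by ChIP followed by sequencing. The antibody, H3K9me2-Ab2 from a new lot, was directed at histone H3 dimethylated at lysine 9. The labels give 4 samples, 2 ChIP replicates and an input library for each, all of the same genotype and stage. Nothing in the labels says that the replicates came from separate embryo collections, so an SD measures only the spread between these 2 libraries. In whole embryos, fewer cells that carry the mark and less of the mark per cell cannot be told apart. Per list, the authors deposited 3579 enriched regions (clusters) for replicate 1, 3238 for replicate 2 and 4277 for the set of both replicates, the pooled list. The lists hold no read counts, so the depth behind a cluster is unknown. With 2 libraries of 1 condition, a paired exact test over libraries cannot go below a two-sided p of 0.5, and the comparisons that follow are descriptions set against the replicate SD.

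H3K9me2 is a histone modification that heterochromatin protein HP1 binds and that histone methyltransferases place over repeats, transposon remnants and pericentric DNA. In flies the base of each chromosome arm is a transition zone in which gene-bearing euchromatin gives way to repeat-rich heterochromatin. On X this zone also carries flamenco, a locus whose long transcripts are processed into piRNAs, small RNAs that silence retrotransposons of the gypsy family in the somatic cells of the ovary. Such zones are known for position-effect variegation, in which a gene placed beside heterochromatin is silenced in some cells and active in others.

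Marking of proximal X was patchy. The covered share of the kept tiles was 15.9% in replicate 1, 13.2% in replicate 2 and 19.9% in the authors' pooled list. The replicates had a mean of 14.5% ± 1.89 (SD, n = 2). Of the 339 tiles, 234 (69%) held no cluster in either replicate, and 212 held none in any of the 3 lists. Among all tiles of the 5 large arms and chromosome 4, 84.6% were empty in both replicates, and in the rest of X 3063 of 4084 (75%) were. At the other extreme, 38 tiles (11.2%) were covered over at least 50% in both replicates, called marked tiles here. The background over all tiles of the arms and chromosome 4 was 5.20%, and over the rest of X it was 4.65%. The remaining 67 tiles (19.8%) were touched by a cluster in at least 1 replicate without being marked in both. Covered tiles therefore ranged from a trace to the full length, and the median covered share of a touched tile was 44.3% in replicate 1 and 40.1% in replicate 2. Clusters covered all 5 kb of 16 tiles in replicate 1 and of 13 in replicate 2.

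**Figure D1:**
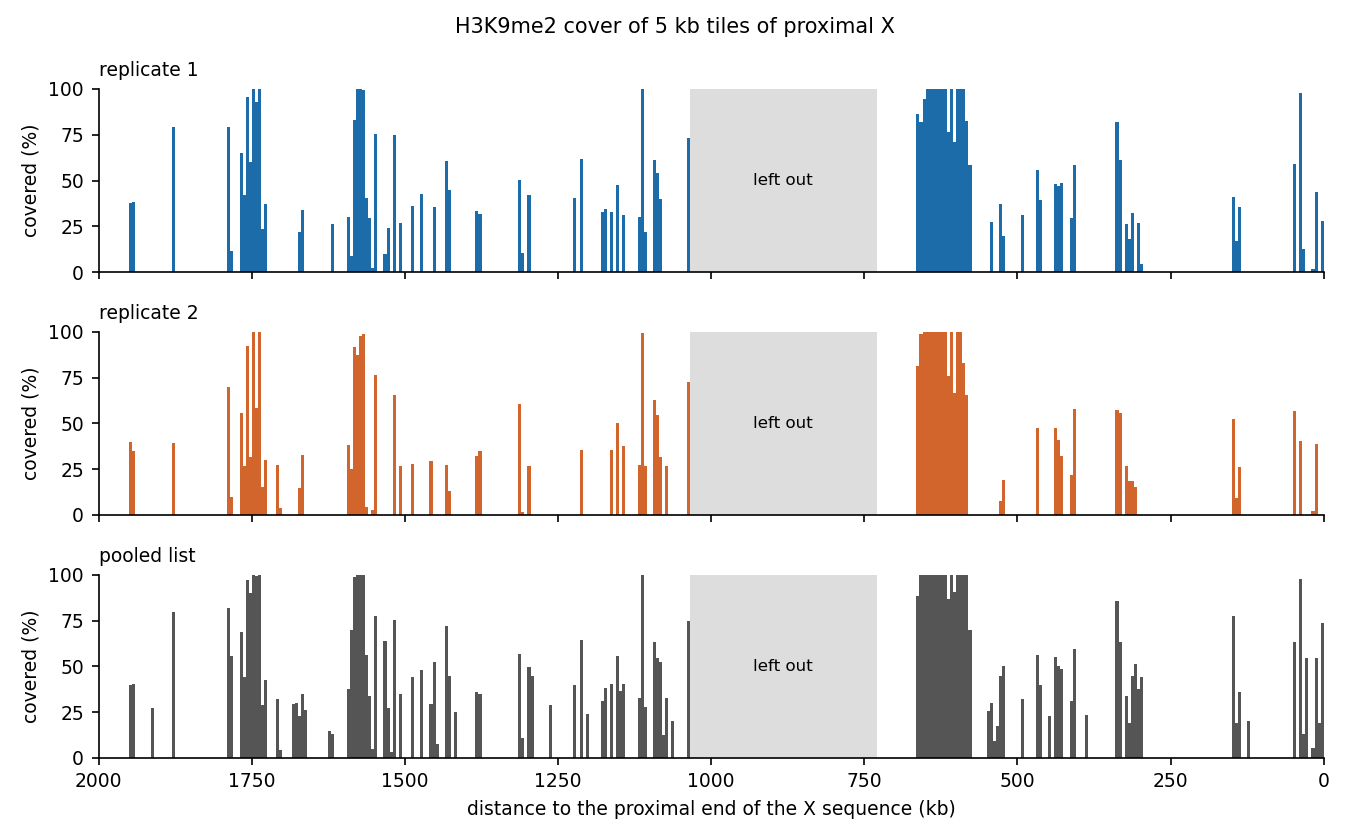
Covered share (%) of each 5 kb tile of proximal X in replicate 1, replicate 2 and the authors' pooled list, plotted by distance to the proximal end of the X sequence (kb). Bars are single tiles and the grey band is the interval left out. A block of nearly full tiles lies between about 664 and 576 kb from the end, a pair of shorter blocks lies in the distal stretch, and most other tiles are empty.

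The marked tiles formed 15 runs, of which 10 were a single tile, and 28 of the 38 (73.7%) lay beside another marked tile. In the rest of X, 73 of 190 marked tiles (38.4%) did. Of the 28 in proximal X, 17 lay in a single run, so much of this contrast comes from 1 place. This longest run went from 21757828 to 21842827, with a mean covered share of 93.7% in replicate 1 and 92.4% in replicate 2. The next held 4 tiles, from 20837828 to 20857827, with 95.6% and 93.9%. In the rest of X, which is 4084 tiles long, the longest run held 8 tiles. Neighbouring tiles often share a cluster, so tiles are not independent observations.

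Entering from the distal side, the first 210 kb of proximal X were almost unmarked. Of the first 42 tiles, 39 were empty in both replicates. The tile from 20542828 to 20547827 was covered over 79.32% in replicate 1 and 79.8% by the pooled list. Replicate 2 covered 39.34% of it, so it did not count as marked. The first marked tile lay from 20632828 to 20637827, with a covered share of 79.5% in replicate 1 and 69.7% in replicate 2, and 82% by the pooled list. From there toward the centromere no monotonic rise was seen in windows of 100 kb. The window from 20622828 to 20722827 was covered over 33.2% ± 3.05 and the window after it, from 20722828, over 3.25% ± 1.23 (SD, n = 2). The next rose again to 33% ± 3.2 from 20822828, and the 3 windows after that had between 5.18% and 7.96%. The highest window, from 21722828 to 21822827, was covered over 60.8% ± 0.422 (SD, n = 2). The lowest whole window, from 22122828 to 22222827, lies closer to the centromere and was covered over 0.209% in replicate 1 and 0% in replicate 2. The last window before the end of the sequence had 12.1% and 6.93%, and 19% by the pooled list. Marking of this window was thus not continuous in any list, but the lists differed at the very end. The final tile had shares of 27.8% (replicate 1), 0% (replicate 2) and 73.5% (pooled list), and the sequence end cut the last pooled cluster. The last marked tile, from 22372828 to 22377827, lay 45 kb before the end. Closer to the end, the tile from 22382828 to 22387827 was covered over 97.68% in replicate 1 and 97.74% by the pooled list. Replicate 2 covered 40.46% of it, so it did not count as marked.

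To find where domains start and end, clusters separated by at most 5 kb were joined within each list, and joined spans of at least 10 kb were called domains. Replicate 1 and replicate 2 each held 5 domains, and every replicate 1 domain overlapped exactly 1 replicate 2 domain. This was a density of 2.95 shared domains per Mb, against 1.22 in the rest of X. The first value rests on 5 domains. Counting shared domains only widens the contrast, because it leaves out domains in the rest of X and none in proximal X. In the rest of X replicate 1 held 41 domains and replicate 2 held 30, and 25 of replicate 1 were found in replicate 2. The pooled list held 9 domains in the 1.695 Mb of proximal X and 82 in the 20.42 Mb of the rest. Of the 10 matched ends in proximal X, 7 were placed within 1000 bp of each other by the replicates, with a median offset of 377 bp over all 10. The other 3 ends differed by 5380, 6264 and 7748 bp. The number of domains depended on the gap that was bridged, with 2 found in both replicates at a limit of 2 kb and 10 at a limit of 10 kb. Among clusters at or above the median score of their list, only 1 was found in both. Of the 5 domains, 3 spanned at least 20 kb in both replicates and are called long domains.

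The first long domain from the distal side ran from 20653649 to 20689009 in replicate 1, from 20653991 to 20688597 in replicate 2 while the pooled list gave 20653474 to 20689281. Its span was 35 kb ± 0.533 (SD, n = 2), and its start and end differed between the replicates by only 342 and 412 bp. It was broken inside. It consisted of 5 clusters in replicate 1 and 6 in replicate 2, which covered 81.9% and 69.4% of the span, with inner gaps of up to 2925 and 3490 bp. The scores of its clusters, which are the authors' own values of unstated scale, ran from 0.75 to 1.47 in replicate 1. That is from percentile 31.2 to percentile 56.4 of the whole replicate 1 list, so these were not among the strongest clusters of the genome. On the distal side the nearest other cluster lay 15.3 kb away in replicate 1 and 15.7 kb away in replicate 2. On the proximal side it lay 6.33 and 6.59 kb away.

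The second long domain had a firm core and soft edges. It ran from 20838677 to 20864296 in replicate 1 and from 20830929 to 20858032 in replicate 2, a span of 26.4 kb ± 1.05 (SD, n = 2), and from 20830937 to 20864514 in the pooled list. Both replicates began the core at the same place, with a cluster starting at 20838677 in replicate 1 and at 20838680 in replicate 2, and ended it at 20858284 and 20858032. The domain starts differed by 7748 bp. In replicate 1 a cluster farther out was 5.42 kb away from the core and was not joined, whereas in replicate 2 a small cluster from 20836757 to 20838256 bridged that space. The domain ends differed by 6264 bp, and 2 short clusters of replicate 1 in between, from 20861025 to 20864296, had no partner in replicate 2. Scores in the core were 1.40 and 1.31 in replicate 1 and 1.54, 1.58 and 1.51 in replicate 2.

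The third long domain was by far the longest, and its distal edge was sharp. It ran from 21758518 to 21846912 in replicate 1 and from 21758772 to 21841532 in replicate 2, while the pooled list gave 21758401 to 21846893. It had a span of 85.6 kb ± 3.98 (SD, n = 2). Its starts agreed to 254 bp, and no cluster lay within 71.1 kb before it in replicate 1 or 71.4 kb in replicate 2. Clusters covered 93.4% of its span in replicate 1 and 94.9% in replicate 2, and the pooled clusters covered 98.1%. The end was less firm, since the last 2 clusters of replicate 1, from 21842264 to 21846912, had no partner in replicate 2. Beyond it the next cluster was 31.4 kb away in replicate 1 and 55.9 kb away in replicate 2.

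Within this longest domain the largest drop in score between neighbouring clusters fell at the same place in each list. From the distal edge on, the first 4 clusters of replicate 1 scored 3.21, 3.32, 2.69 and 2.69, at percentiles between 85.2 and 97 of that list. The 3 that followed scored 1.22, 0.97 and 0.60, at percentile 50.2 and below. In replicate 2 the scores were 3.72, 2.87 and 2.97 and then 1.23 and 1.22. In the pooled list they were 2.79 and 2.79 and then 1.22 and 0.53. The drop lay across a gap of 462 bp, from 21821105 to 21821566, that no list covered. A second gap common to the lists, from 21811772 to 21812424, had no such drop across it. The pooled clusters on the high side of the largest drop ran from 21758401 to 21811771 and from 21812425 to 21821104. They were also the highest-scoring pooled clusters of proximal X touched by both replicates, at percentiles 90.8 and 90.7 of the pooled list. Replicate 1 covered 96.9% and 88.4% of them, and replicate 2 covered 98.5% and 83.9%.

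**Figure D2:**
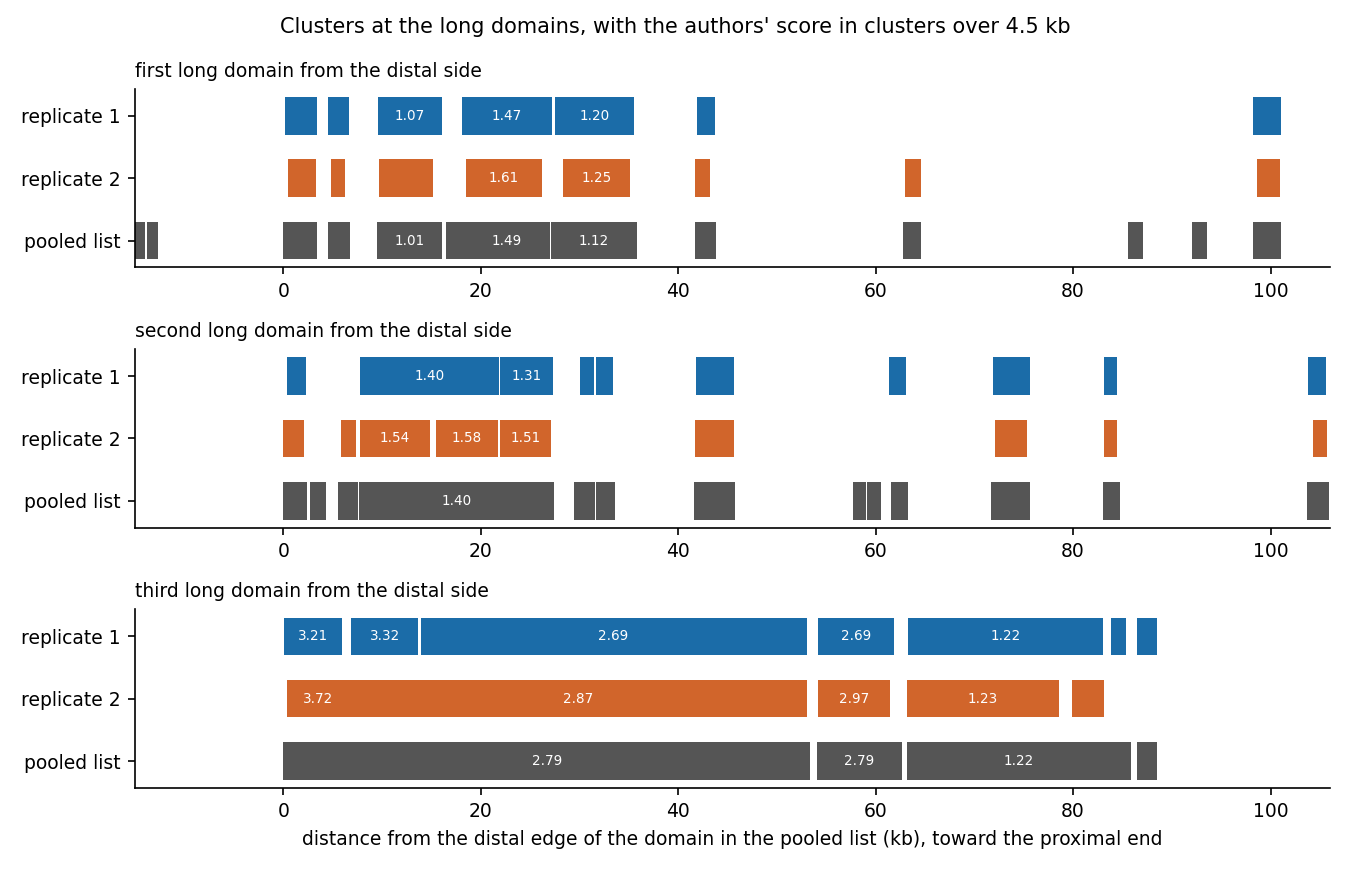
Clusters at the long domains of proximal X in each list, by distance from the distal edge in the pooled list (kb). Bars are clusters, the numbers in white are the authors' scores of clusters longer than 4.5 kb, and pooled clusters only a few bp apart appear joined. The third domain starts at the same place in the 3 lists, and its scores fall from 2.69 and above to 1.22 or 1.23 at the same gap in each.

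Both remaining domains were shorter, and the replicates placed their outer ends within 1000 bp of each other. The domain from 21329768 to 21341864 in replicate 1 and from 21329680 to 21341625 in replicate 2 spanned 12 kb ± 0.107 (SD, n = 2). It was led by a single cluster of 5.88 kb in the pooled list, from 21329676 to 21335553, the third highest-scoring of proximal X, with a pooled score of 2.21 and scores of 2.14 in replicate 1 and 2.35 in replicate 2. The replicates covered 97.9% and 99.8% of this cluster. The domain from 21983197 to 21996677 in replicate 1 and from 21983229 to 21996109 in replicate 2 spanned 13.2 kb ± 0.424 (SD, n = 2). It consisted of 3 spaced clusters in each list, which covered 53.4% of the span in replicate 1 and 47% in replicate 2. The pooled list held 9 domains. Its additional 4 lay from 20739088 to 20760839, from 22110596 to 22125830, from 22273259 to 22284626 and from 22407555 to 22422827, and in the replicates only 1 or 2 clusters lay in each. The last was trimmed at the end of the sequence.

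Between the domains lay short, separate clusters. Outside domains, replicate 1 held 47 of its 68 clusters in proximal X and replicate 2 held 37 of its 58. Their median length was 2144 bp in replicate 1 and 2037 bp in replicate 2, against 5421 and 3505 bp inside domains. Any cluster of at least 10 kb falls inside a domain by construction, so shorter clusters outside are partly a product of the definition. In the pooled list the medians were 1943 bp outside and 2362 bp inside domains. The median score of clusters outside domains was 0.705 in replicate 1, percentile 27.5 of that list, and 1.01 in replicate 2, percentile 25.7. The highest score outside domains was 1.72 in replicate 1 and 2.62 in replicate 2. The longest cluster outside domains, 7610 bp in replicate 1, filled the tile from 21307828 to 21312827, which was covered over 100% in replicate 1 and 99.4% in replicate 2.

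Unmarked stretches separated the clusters. The longest without a cluster in any list spanned 147 kb, from 22125831 to 22273258, in the proximal stretch, against 254 kb for the longest such stretch in the rest of X. The next spanned 86.3 kb from 20547451 to 20633726, just before the first marked tile, and 71.9 kb from 22301816 to 22373747, near the end of the sequence. A stretch of 65.6 kb from 21692828 to 21758400 began at the border of the dropped interval, and a stretch of 65.2 kb ran from 21044566 to 21109802. The median stretch between clusters was 8.82 kb in replicate 1 and 12.8 kb in replicate 2, against 15.4 and 19.8 kb in the rest of X. Whether reads can be placed in these stretches, and how much of them is assembly gap, was not assessed here, so the absence of a cluster is not a measured absence of the mark.

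The dropped interval met the kept tiles differently on its 2 sides. On the distal side a single cluster crossed the border, from 21384157 to 21390839 in replicate 1 and from 21384186 to 21390284 in replicate 2, so the end of that marked tile is the end of the tile and not of the cluster. On the proximal side the last cluster of the interval, which was 39 kb (replicate 1) and 38.6 kb (replicate 2) in length, ended at 21687463 and 21687387, before the border. From there to the longest domain no cluster was called over 71.1 kb in replicate 1 and 71.4 kb in replicate 2, or over 70.9 kb by the pooled list. The interval itself was covered over 46.1% ± 2.45 (SD, n = 2), so that the covered share of the kept tiles was 0.315 ± 0.0242 times as high.

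The distal stretch was covered over 12.7% ± 1.79 and the proximal stretch over 16.9% ± 2.01 (SD, n = 2). The ratio of the proximal to the distal share was 1.33 ± 0.0293, from 1.31 in replicate 1 and 1.35 in replicate 2. Without the tiles of the longest domain, an alternative chosen once these values were known, the ratio was 0.523 ± 0.0719, which lowers the proximal side alone by construction. With all long domains left out on both sides it was 0.808 ± 0.0911 (SD, n = 2). Among clusters at or above the median score of their list it was 8.87 ± 8.78 (SD, n = 2), a value the replicates did not share. Empty tiles made up 69.4% of the distal and 68.5% of the proximal stretch.

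Compared with the rest of X, proximal X had a higher covered share, and much of its covered length lay in the long domains. The rest of X, from 1 to 20420000, was covered over 8.23% ± 1.66 (SD, n = 2). Proximal X exceeded it in each library, with a mean ratio of 1.78 ± 0.129, from 1.69 in replicate 1 and 1.87 in replicate 2. The 3 long domains took up 8.81% of the kept length in replicate 1 and 8.52% in replicate 2, and held 49.9% and 55.7% of its covered base pairs. The longest alone held 30.7% and 35.1%. As an alternative, the 34 tiles that overlap the long domains were left out of proximal X. From the rest of X, the 46 tiles of its 5 domains of at least 20 kb in both replicates were left out. The covered shares were then 7.61% ± 1.57 and 7.63% ± 1.61 (SD, n = 2). Within each library they were close, at 8.72% and 8.77% in replicate 1 and 6.5% and 6.49% in replicate 2. The mean ratio was 0.998 ± 0.00557 (SD, n = 2). The marked tiles then made up 3.93% of proximal X and 4.06% of the rest, and the empty tiles 76.7% and 75.9%. Leaving out the most covered tiles lowers a region by construction, and here it took a far larger part of proximal X than of the rest of X. With nothing left out beyond the dropped interval, the median window of 100 kb was covered over 8.74% in the 16 whole windows of proximal X and over 6.11% in the 204 windows of the rest of X. Long domains were found at 1.77 per Mb of proximal X and at 0.245 per Mb of the rest of X, where the longest spanned 51.2 kb. These densities rest on 3 and 5 domains. Among clusters at or above the median score of their list, the covered share of proximal X was 6.4% ± 2.98 and its ratio to the rest of X was 3.17 ± 0.537 (SD, n = 2).

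**Figure D3:**
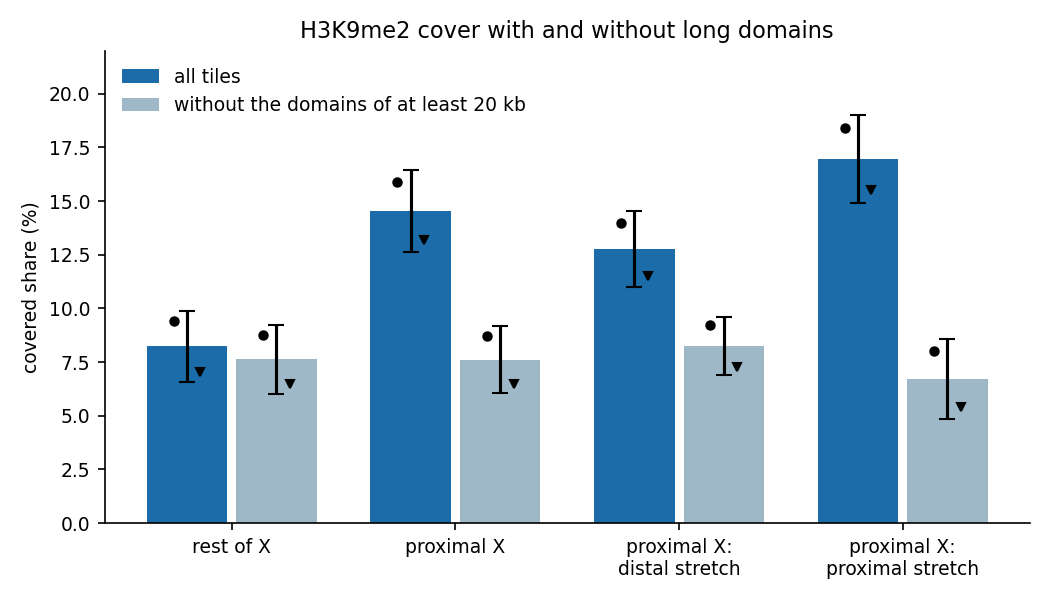
Covered share (%) of the rest of X, of proximal X and of its distal and proximal stretches, over all tiles (dark) and without the tiles of domains of at least 20 kb in both replicates (light). Bars are means of 2 replicates, error bars are SD, circles are replicate 1 and triangles replicate 2. Without long domains proximal X has a mean of 7.61% and the rest of X a mean of 7.63%.

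Proximal X had a lower covered share than the last 2 Mb of the autosomal arms 2L and 3L, from which no interval was dropped. The last 2 Mb of 2L were covered over 37.5% ± 2.08 and those of 3L over 64.8% ± 1.7 (SD, n = 2), so that the share of proximal X was 0.387 ± 0.0289 and 0.224 ± 0.0232 times as high. With the dropped tiles put back, the last 2 Mb of X were covered over 19.4% ± 1.97 (SD, n = 2), still below both. On 2L 35.2% and on 3L 65% of the tiles were marked in both replicates, and 45.5% and 21.2% were empty. The longest joined domain there spanned 275 kb on 2L in each replicate, and 199 kb in replicate 1 and 177 kb in replicate 2 on 3L. The longest on proximal X spanned 88.4 and 82.8 kb. These values depend on where each arm sequence ends in release 5.

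**Figure D4:**
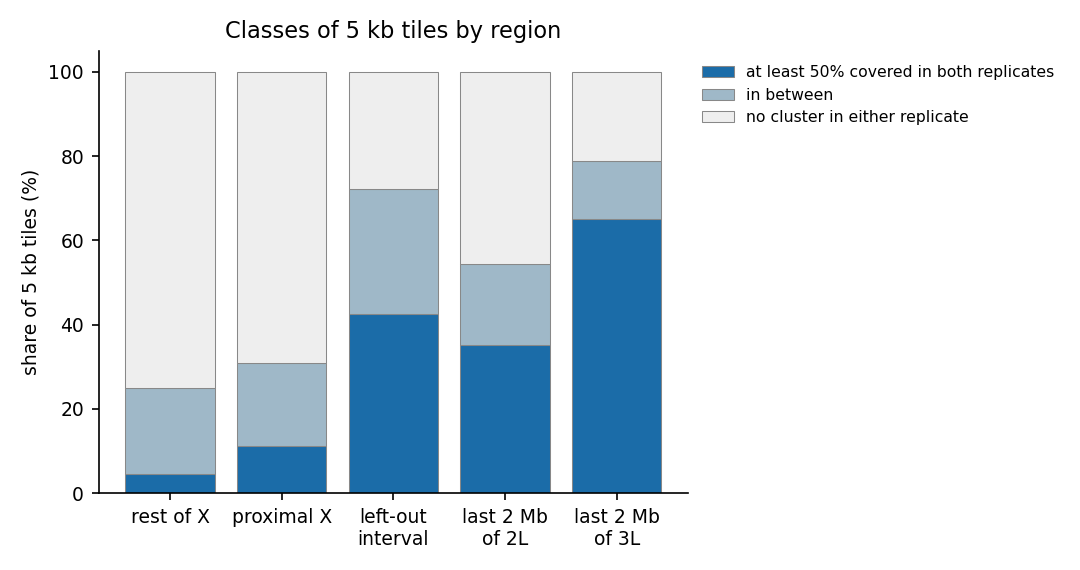
Share (%) of the 5 kb tiles of each region that were covered over at least 50% in both replicates (dark), touched but not marked in both (light) or empty in both (pale). Proximal X, with 11.2% marked tiles, lies between the rest of X, with 4.65%, and the last 2 Mb of 2L, with 35.2%.

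Most tiles touched in a replicate were touched in both, and replicate 1 covered more. Of the 105 tiles touched in either replicate, 83 were touched in both, 17 in replicate 1 only and 5 in replicate 2 only. Of the 45 tiles covered over at least 50% in replicate 1, 38 were so in replicate 2, which had 40. The covered share was higher in replicate 1 in 68 tiles and in replicate 2 in 25. Over the 339 tiles Pearson's r was 0.941 and Spearman's rho was 0.885. Over the 105 touched tiles r was 0.879 and rho was 0.839. These are descriptions across tiles, which share clusters with their neighbours and come from the same pair of libraries. The largest difference, 58.3 percentage points, was in a tile that replicate 2 did not touch.

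**Figure D5:**
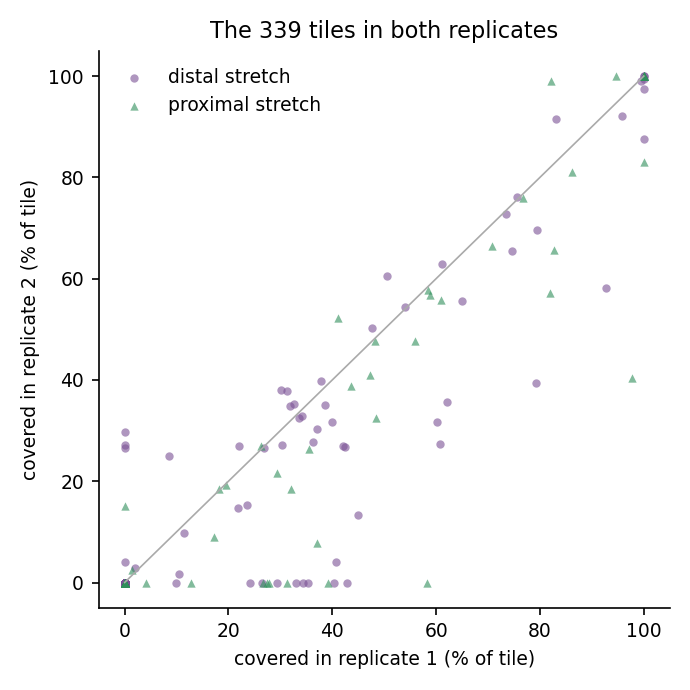
Covered share (%) of each of the 339 tiles in replicate 1 (horizontal) and replicate 2 (vertical), with circles for the distal and triangles for the proximal stretch and a line at equality. Points on the axes are tiles touched in a single replicate, 17 in replicate 1 and 5 in replicate 2, and 68 tiles lie below the line.

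At the level of clusters, replicate 1 touched 54 of the 58 clusters that replicate 2 had in proximal X (93.1%), and replicate 2 touched 51 of the 68 of replicate 1 (75%). The 17 replicate 1 clusters without a partner were short, with a median of 1655 bp and none longer than 2144 bp, and their median score was 0.64, against 1.01 for those with a partner. Among 42 pairs of clusters that overlapped each other and no other, 88% of 83 ends lay within 500 bp of each other, with a median offset of 206 bp. Replicate 1 had the longer cluster in 28 of 41 pairs with both ends inside the kept stretches. The pooled list held 94 clusters in proximal X, of which 47 (50%) were touched by both replicates and 27 by neither. Replicate 1 alone touched 16 and replicate 2 alone touched 4. Those touched by both held 264 kb and those touched by neither 36.4 kb, with median lengths of 3396 and 1351 bp. Pooled clusters also touched 22 tiles that were empty in both replicates.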

How the data were processed

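The authors deposited lists of enriched regions, per the file headers on FlyBase release 5, each with its bounds and a score. The score's scale, the caller, its threshold and the way replicates were pooled were not given in the sources used here. Bowtie 0.12.7 was used, per the submitters' processing notes. Scores were used only to rank and filter within a list.

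Clusters were read as 1-based base pair intervals and trimmed at the sequence end (3, 3 and 5 clusters in replicate 1, replicate 2 and the pooled list). Covered shares of 5 kb tiles were computed with Python 3.11.15 and numpy 2.4.6, and equalled bedtools 2.31.1 coverage in all 339 tiles of each list. The joining of domains was tested on simulated clusters. The rank correlation used scipy 1.17.1 and figures matplotlib 3.10.9. Depth is unknown, so no interval based on reads is given. The input libraries enter only through the authors' calls.

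The region and tile rule were chosen with earlier results of these data known. Named regions were the domains found in both replicates, the 5 longest stretches without a cluster, the first marked tile and the 3 highest-scoring pooled clusters touched by both replicates. The last marked tile, the windows of 100 kb, the score step, the edges of the dropped interval and the longest cluster outside domains were named after their values were seen. The available gene table is on release 6, so no gene or sequence was assigned to a release 5 position.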

Additional observations from a re-analysis of the deposited data

How the results depend on the processing

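Of 92 values recomputed under 18 settings, 46 stayed within the replicate SD, or for counts and tile shares within 1.5 times, and 46 moved, where any change in an end offset was counted as a move. Apart from the construction of a setting, the cause was not tested. The pooled list gave a covered share of 19.9%, 17.7% of tiles covered over at least 50%, 9 domains, a ratio of proximal to distal stretch of 1.22, and ratios of 1.56, 0.453 and 0.286 to the rest of X, 2L and 3L. With clusters at or above the median score of their list, these were 6.4%, 4.72%, 1 domain with a median end offset of 10878 bp, 8.87 ± 8.78, 3.17, 0.222 and 0.113. With clusters of at least 2 kb they were a covered share of 12.4%, 3 domains with an offset of 333 bp, 1.52, 1.95, 0.35 and 0.194. Marked tiles made up 19.8% at a limit of 25% of a tile and 7.08% at 75%. The number of domains was 2 when gaps of at most 2 kb were bridged (offset 1087 bp), 10 at 10 kb (476 bp) and 3 with spans of at least 20 kb (2896 bp), and the offset was 252 bp with spans of at least 5 kb. The stretch ratio was 1.37 with tiles of 10 kb, and the proximal 1 Mb was covered over 16.9%. Without the longest domain, added after the data were seen, the covered share was 10.3%, marked tiles 6.54% and the stretch ratio 0.523. The ratios to the rest of X, 2L and 3L were 1.26, 0.275 and 0.159, with nothing removed from those regions. Without all long domains, also added later, these values were 7.61%, 3.93%, 0.808, 0.998, 0.202 and 0.117, with 2 domains. Long domains were then removed from the rest of X too, but not from 2L or 3L. Leaving out 1 of 2 replicates gives the other's value, with covered shares of 13.2% to 15.9% and stretch ratios of 1.31 to 1.35, and shows nothing about stability. All values from leaving out a replicate are among the 46 that stayed. For covered shares and ratios between regions this was fixed in advance, since each of 2 replicates lies within 1 SD of their mean. No paired analysis was possible because ChIP samples share replicate numbers only with input samples, for which no cluster list was analysed here. Ratios between regions were taken within each library.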
